A study of Mus musculus with 3 samples.

Results

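The early B lymphoid program was followed through open chromatin maps of mouse embryonic liver at Pax5, Ebf1, Vpreb1, Igll1, Cd79a, Cd79b, Blnk and Rag1, which are 8 of the 21938 protein-coding genes examined. The list was picked from textbook B cell genes with the promoter peaks of these same libraries already seen, so the promoter peak signal that chose it is given as a description and is not tested. Its working name was B lymphoid genes with open promoters, and the data went against that name for 5 of the 8. Pax5, Ebf1 and Vpreb1 had a peak within 500 bp of an annotated start in each of the 3 replicates, while Igll1, Cd79a, Cd79b, Blnk and Rag1 had none in any replicate in the shorter, stricter peak list. The 3 open genes make 37.5% of the list, against 50.9% of all protein-coding genes that were open in all 3 replicates by the same measure. The Pax5 peak lay near an internal start, and the Vpreb1 peak covered a non-coding start together with starts of a neighbouring gene. The Ebf1 peak covered the start of its coding transcripts in GENCODE, but a neighbouring gene model also starts within 500 bp of it. No shorter-list peak lay within 500 bp of a RefSeq start of any of the 8 genes.

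DNase-seq marks chromatin that the enzyme DNase I can cut, which includes promoters and enhancers bound by transcription factors. The 3 libraries came from the liver of embryos at 13.5 days, numbered by the labels as biological replicates of 1 group of mixed C57BL/6N and 129 strain, homozygous for a globin mutation in which HS2 and HS3 are deleted. These names are known for sites of the β-globin locus control region, and with no unaltered liver analysed here no effect of the deletion could be read. The labels give the replicates the same donor entry and do not say how many embryos made up a library, so the spread between replicates may be partly technical.

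B cells arise in the liver of the mouse fetus before the bone marrow takes over. Progenitors that express the E2A factor (Tcf3), Ikaros (Ikzf1) and PU.1 (Spi1) switch on Ebf1 and then Pax5, the regulators that commit cells to the B lineage. These in turn drive the surrogate light chain genes Vpreb1 and Igll1, the signalling chains Cd79a and Cd79b and the adaptor Blnk, while Rag1 and Rag2 cut the antigen receptor genes so that they can be recombined.

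The shorter peak lists held 28209, 57314 and 41319 peaks in replicates 1, 2 and 3. The peak signal used throughout is the highest cut density in a peak, normalized to read depth, and it carries no unit. If its smallest step is 1 cut, the libraries held 79.4, 119.5 and 132.7 M cuts, a depth that no source used here gives. Among marker genes chosen for cell types of this tissue, 7 of 8 red cell precursor genes were open in all 3 replicates, with summed promoter signals of 27.8 to 44.4. Of 7 hepatoblast genes 0 were open in all 3, with sums of 0.731 to 4.31. The defining markers Alb and Afp were at 0 in every shorter list, 4 of the 7 had a shorter-list peak in at least 1 replicate, and all 7 had a peak in at least 1 longer list. Of 7 myeloid genes 0 were, with sums of 0 to 1.29, and of 7 T and NK cell genes 1, Lck, with list sums of 5.18 to 6.87. Of 9 B cell genes, the 8 members with Ms4a1, 3 were open, with sums of 9.12, 13.5 and 9.63 in replicates 1, 2 and 3. The members were picked with these promoter peaks in view, so these sums cannot be ranked against the other lists. The Vpreb1 peak, which also covers starts of the neighbouring gene Top3b, gave 4.89, 7.38 and 4.87 of them. These are bulk libraries, in which fewer cells of a type and less open chromatin per cell cannot be told apart.

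**Figure D1:**
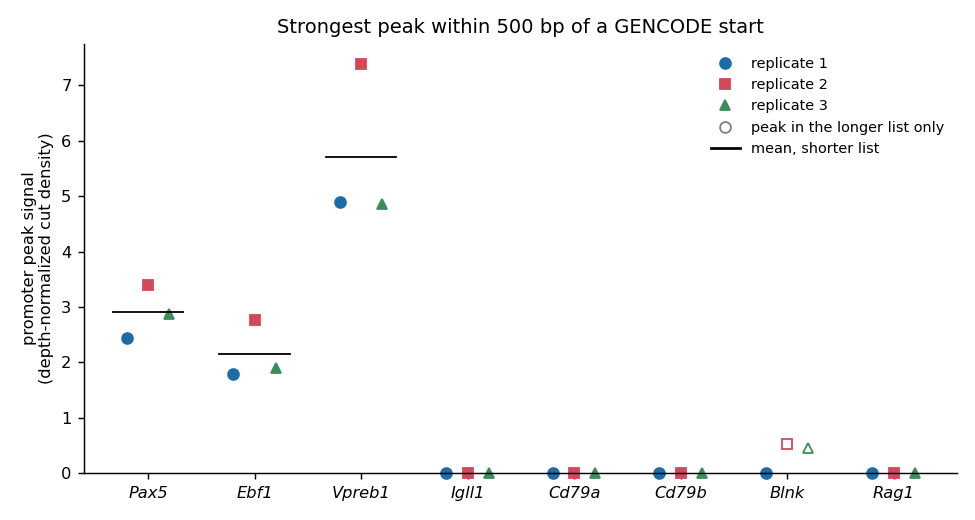
Promoter peak signal (vertical axis, depth-normalized cut density, no unit) of the 8 B lymphoid genes (horizontal axis). Each symbol is 1 replicate, the bar is the mean over the shorter lists, and hollow symbols are peaks found in the longer list only. Vpreb1 sits at 4.87 to 7.38, Pax5 and Ebf1 lie between 1.79 and 3.39, and Blnk reaches 0.527 in the longer list only.

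Ebf1 encodes early B cell factor, a DNA-binding regulator that can open closed chromatin. The gene lies at chr11:44617317-45008091 on the plus strand (mm10). Its promoter peak, chr11:44617141-44617340 joined over the replicates, covers the single start of its coding transcripts in GENCODE, at 44617317. Replicates 1, 2 and 3 gave it signals of 1.79, 2.77 and 1.90, which average 2.15 ± 0.537 (SD, n = 3). All 3 values were low for an open promoter, at the 15.2nd, 30.8th and 22.2nd percentile of the open promoters of their own replicate. The medians of those promoters were 5.03, 5.56 and 4.64. The start of Gm37695, an unconfirmed gene model on the minus strand at chr11:44610837-44617016, lies within 500 bp of the same peak, so the peak cannot be assigned to Ebf1 alone. RefSeq places the Ebf1 starts further inside the gene, the nearest at 44618100, which is 760 to 779 bp from the peak.

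The part of the Ebf1 peak before the GENCODE start is shown because its footprints recurred. A footprint is a short stretch inside a peak that is cut less than its surroundings, as happens where a protein covers the DNA. Footprints inside the peak numbered 2, 5 and 4 in replicates 1, 2 and 3, and 2 of them were shared by all 3. The sequence is GRCm38.p6 (mm10), chr11:44617141-44617316, plus strand, with the bases common to the footprints of all 3 replicates in capitals.
Ebf1 promoter: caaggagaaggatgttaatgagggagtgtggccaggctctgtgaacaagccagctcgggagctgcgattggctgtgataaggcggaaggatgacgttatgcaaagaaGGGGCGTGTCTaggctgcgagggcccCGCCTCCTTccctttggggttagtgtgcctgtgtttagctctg
The cores of these shared footprints are GGGGCGTGTCT and CGCCTCCTT. Neither holds a whole match to the motifs searched on both strands, apart from an overlap of the second with GGGAA, the core of the Ikaros motif, on the other strand. That match lay wholly in a footprint in 1 replicate, and GGGAA occurs in 49.1% of the 14229 promoter regions common to all 3 replicates, counted in 200 bp. The CCAAT box bound by NF-Y (other strand) and a GATAA match, both upstream, were touched by a footprint in 0 replicates. The 200 bp about this region had a GC content of 56%, against a median of 65.5% for all common promoter regions.

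Pax5 encodes the factor that holds B cells to their identity. It lies at chr4:44524757-44710487 on the minus strand. The signal of its peak was 2.44, 3.39 and 2.86 in replicates 1, 2 and 3, a mean of 2.90 ± 0.473 (SD, n = 3), at the 22.0th, 35.2nd and 31.8th percentile of open promoters. This peak, joined at chr4:44704421-44704680, is not at the main start of the gene. It lies 5.94 kb inside Pax5, in an intron and in an exon of the unconfirmed gene model 5730488B01Rik (chr4:44702800-44705110, plus strand). It was counted because 1 coding transcript starts downstream of it, at 44704006. The gap from that start to the peak was 495, 435 and 415 bp in the same order of replicates, just inside the 500 bp limit, and with a 250 bp window Pax5 had no promoter peak.

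The starts at the 5′ end of Pax5, at 44710408, 44710418 and 44710487, serve 11 of its 14 coding transcripts. Within 500 bp of them 0 bases passed the false discovery rate (FDR) limit of 0.05 for local cut density in any replicate. The RefSeq start, 44710694, was 6014 to 6054 bp from the peak. The internal start at 44703413 had 119 bases below the FDR limit in replicate 3 alone, with a lowest value of 0.0103, and a weak peak there, 0.46, was in the longer list of that replicate.

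The internal Pax5 peak is shown on the minus strand, GRCm38.p6 (mm10) chr4:44704421-44704680, with the 9 bases common to footprints of all 3 replicates in capitals.
Pax5 promoter: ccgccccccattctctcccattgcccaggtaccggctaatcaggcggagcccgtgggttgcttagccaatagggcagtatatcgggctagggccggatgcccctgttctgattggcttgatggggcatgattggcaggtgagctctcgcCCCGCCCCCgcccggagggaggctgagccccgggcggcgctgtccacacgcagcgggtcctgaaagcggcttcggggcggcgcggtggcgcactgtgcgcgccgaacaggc
The peak held 1, 4 and 4 footprints in replicates 1, 2 and 3, and 1 was shared by all 3. Its core, CCCGCCCCC, holds GGGCGG on the other strand, the motif bound by Sp and KLF factors, and this match lay wholly in a footprint in all 3 replicates. Of all common promoter regions 59.6% hold that motif, so it is an ordinary promoter feature. The peak also holds the EBF motif CCCNNGGG, which occurs in 15.8% of common promoter regions, and the E-box CAGGTG, which occurs in 12.4%. Both were touched by a footprint in 0 replicates, as were the 3 CCAAT matches. A match is only a run of letters, and binding was not measured. At 68% GC the central 200 bp of this peak were close to the median of 65.5% for common promoter regions.

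Vpreb1 and Igll1 together encode the surrogate light chain, which pairs with the heavy chain in the pre-B cell receptor. They are neighbours on the minus strand of chromosome 16, their 5′ ends 6.86 kb apart. The Vpreb1 peak had the highest signal of the list in each replicate, 4.89, 7.38 and 4.87 in replicates 1, 2 and 3, a mean of 5.71 ± 1.44 (SD, n = 3). These values were at the 48.6th, 60.8th and 52.1st percentile of open promoters, in the middle of their range. Replicate 2 was the highest for each of the 3 open genes, both in signal and in percentile.

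That peak, joined at chr16:16870641-16870920, also covers starts of Top3b, which encodes a topoisomerase and runs the other way at chr16:16870736-16892990. On the Vpreb1 side it covers the start of 2 non-coding transcripts at 16870843, which is the annotated 5′ end of the gene (chr16:16868403-16870843). The start of the only coding Vpreb1 transcript, 16869255, is 1386 bp from the peak, and RefSeq has its start at the same base. Within 500 bp of that coding start 0 bases passed the FDR limit in replicates 1 and 2 and 1 base did in replicate 3, with an FDR of 0.0487. Around 16870843, in contrast, 792, 1001 and 866 of 1001 bases passed.

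Part of the region around the coding start is hard to map uniquely. Of its 32-base words 64.6% occurred once in the genome, against 100% inside the peak itself. The related gene Vpreb2, 1110 kb away on the same chromosome, had 63.9% unique words at its start and no peak in either list. Whether this bears on the lack of calls at the Vpreb1 coding start was not tested. Igll1 (chr16:16860671-16863985) had 100% unique words at its single start and still 0 bases below the FDR limit in any replicate.

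The part of the shared peak before the first Top3b start is shown on the plus strand, GRCm38.p6 (mm10) chr16:16870641-16870735. The 2 genes overlap here, so this stretch is upstream of Top3b but inside Vpreb1, downstream of its annotated 5′ end. Capitals are bases common to the footprints of all 3 replicates.
Vpreb1 and Top3b promoter: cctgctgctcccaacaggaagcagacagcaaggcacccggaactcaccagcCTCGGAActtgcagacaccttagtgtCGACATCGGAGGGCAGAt
Footprints in the whole peak numbered 5, 6 and 5, the most of the 3 open genes in each replicate, and 2 were shared by all 3. The longer core, CGACATCGGAGGGCAGA, ends just before the first Top3b start. It holds CCCTC, part of the CTCF motif, on the other strand, and this match lay wholly in a footprint in all 3 replicates. CCCTC occurs in 64.9% of common promoter regions. An ETS motif, AGGAAG, lies near the left end of the printed stretch and was touched by a footprint in 0 replicates. That motif occurs in 21.2% of common promoter regions. The CpG ratio of the 200 bp, the observed over the expected number of CpG pairs, was 0.866, near the median of 0.826 for common promoter regions.

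**Figure D2:**
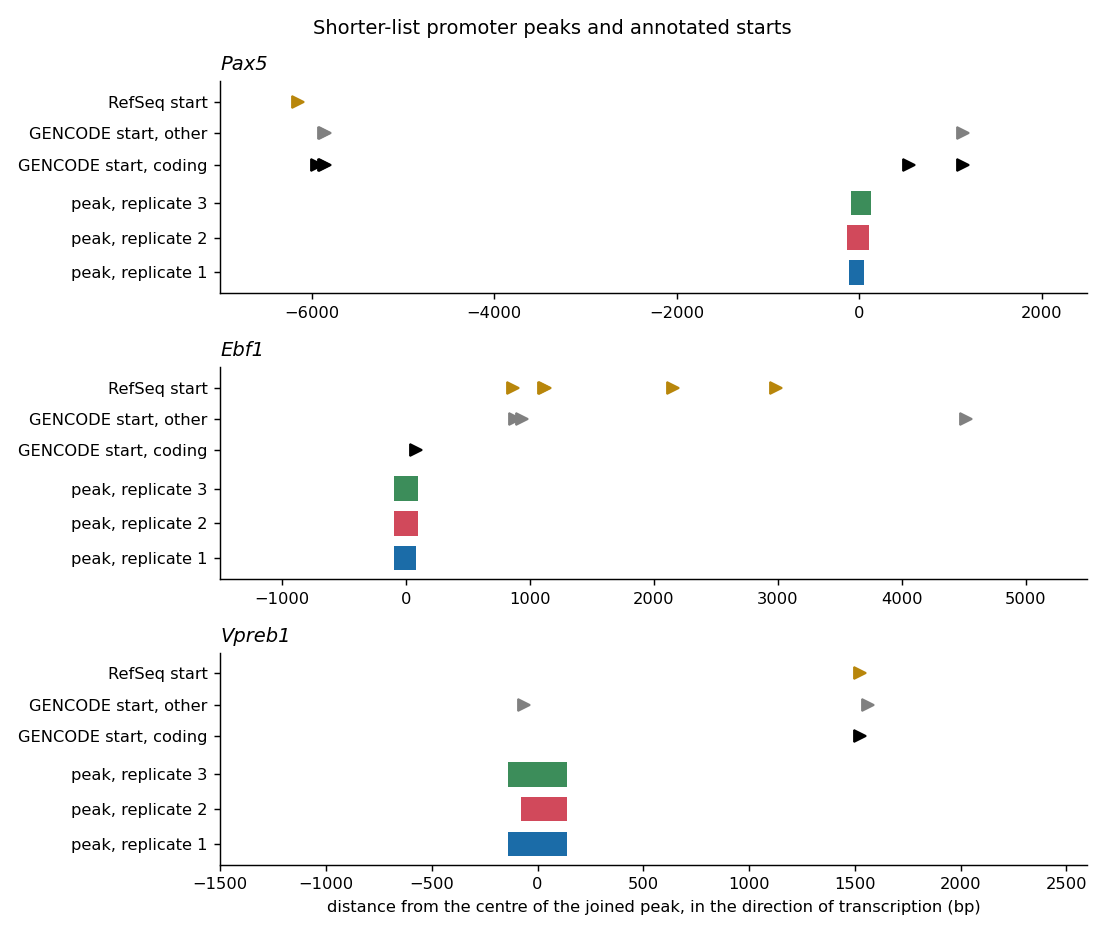
Position of the shorter-list promoter peaks (bars, 1 per replicate) and of annotated starts (triangles) for Pax5, Ebf1 and Vpreb1. The horizontal axis is the distance in bp from the centre of the joined peak, in the direction of transcription, and starts beyond its ends are not drawn. The Pax5 peak sits upstream of internal starts and 5.94 kb inside the gene from its 5′ end, and the Ebf1 peak touches the GENCODE coding start. Of the starts of Vpreb1, its peak touches a non-coding one only. Starts of other genes, such as those of Top3b under the Vpreb1 peak, are not drawn.

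Of the genes without a promoter peak, Cd79a (chr7:24897381-24902197, plus strand) and Cd79b (chr11:106311341-106314762, minus strand) encode the chains that carry the receptor's signal into the cell. Both had a signal of 0 in the shorter and in the longer list of every replicate, and 0 bases below the FDR limit within 500 bp of any start. The same was true of Igll1 and of Rag1 (chr2:101638282-101649501, minus strand), the recombinase gene. The share of all protein-coding genes with at least 1 base below that limit was 58.2%, 63.5% and 61.9% in replicates 1, 2 and 3, and the rest, like these 4 genes, had none.

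Blnk (chr19:40928927-40994535, minus strand), which links the kinase Syk to downstream enzymes, was the one closest to a call. It had no peak in the shorter lists. In the longer list it had no peak in replicate 1, a peak of 0.527 in replicate 2 and a peak of 0.452 in replicate 3. Those replicates had 167 and 67 bases below the FDR limit, with lowest values of 0.0013 and 0.0153, and replicate 1 had 0. With the longer list 3 of the 8 genes were again open in all 3 replicates, the same 3, against 55.7% of all protein-coding genes. In single replicates 3 of 8 were open in each, against 51.5%, 57.5% and 55.5% of all genes in replicates 1, 2 and 3.

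The upstream sequences of Igll1 and Rag1 are shown because they hold motifs of B lineage factors and no called peak. Each line runs 5′ to 3′ on the minus strand of GRCm38.p6 up to the base before the RefSeq start, at chr16:16863986-16864145 and chr2:101649533-101649692. Capitals mark matches on either strand to the E-boxes CAGCTG and CAGGTG, the RUNX motif TGTGGT, the ETS motif AGGAAG, the Ikaros motif GGGAA, the EBF motif CCCNNGGG and the octamer ATGCAAAT.
Igll1 upstream: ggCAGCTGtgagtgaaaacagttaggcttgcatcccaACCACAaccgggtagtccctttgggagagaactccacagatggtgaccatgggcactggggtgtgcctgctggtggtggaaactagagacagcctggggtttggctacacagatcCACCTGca
Rag1 upstream: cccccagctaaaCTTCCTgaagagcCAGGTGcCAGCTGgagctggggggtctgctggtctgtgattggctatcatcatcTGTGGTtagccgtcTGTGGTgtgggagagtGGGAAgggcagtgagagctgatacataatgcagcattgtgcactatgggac
Igll1 has CAGCTG 158 bp, a RUNX match 123 bp and CAGGTG 8 bp before its start. It also has an EBF match, CCCNNGGG, 231 bp before its start, which lies outside the printed stretch. Rag1 has its ETS match 148 bp, CAGGTG 135 bp, CAGCTG 128 bp and RUNX matches 81 and 67 bp before its start. Of the 32851 RefSeq promoter windows of 300 bp, 16.3% hold CAGCTG, 20.2% CAGGTG, 16.8% TGTGGT, 35.4% AGGAAG and 62.7% GGGAA, so each of these motifs is common on its own.

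The RefSeq promoter windows, taken from 250 bp before to 50 bp after the start, were found for 7 of the 8 genes. Igll1 had a CpG ratio of 0.0833, Vpreb1 0.0917, Rag1 0.165, Cd79a 0.314 and Blnk 0.374, all below the median of 0.384 over all windows. Pax5 had 0.882, and the 2 Ebf1 windows had 0.954 and 0.819. Blnk and Cd79a lay near the middle of all windows, with 49.1% and 43.4% of windows lower, and Igll1, Vpreb1 and Rag1 lay lower, with 11%, 12.2% and 23.3%. Cd79b had no window in the table. By RefSeq starts 0 of the 8 genes had a shorter-list peak in all 3 replicates, against 51.9% of all protein-coding genes with such starts. The longer-list peaks of Blnk in replicates 2 and 3 cover its RefSeq start at 40994221.

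Distal regions had no base within 1 kb of any annotated start. In the genes and within 50 kb of them, peaks joined over the replicates made 41 regions. All 3 replicates had a peak in 10 of them, 2 replicates in 12 and a single replicate in 19. Replicate 1, with the fewest peaks, decided this count: all 12 regions of 2 replicates were missing from its shorter list, 9 of them were in its longer list, and without replicate 1 the count in all remaining replicates was 22. Of the 19 single regions 17 were in replicate 2. At least 1 region common to all 3 replicates lay at 4 of the 8 genes, Pax5, Ebf1, Cd79a and Blnk, against 49% of all protein-coding genes, which differ in length, and the median number per gene was 0 over all of them.

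Inside Pax5, 146 kb from its 5′ end, an intronic region at chr4:44564661-44564860 had signals of 1.5, 1.34 and 1.57 in replicates 1, 2 and 3. It was the only common region of Pax5, and 4 others were in 1 or 2 replicates, at 0.494 to 0.904 where called. Ebf1 had a common region 6.26 kb upstream of its start, at chr11:44610961-44611160 in an exon of Gm37695, with 1.73, 1.61 and 1.24. Its other common region lay just beyond its 3′ end, 391 kb from the start, at chr11:45008201-45008420, with 1.27, 1.10 and 1.5. The long Ebf1 gene body itself held only regions of 1 or 2 replicates, the strongest at 0.494.

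Blnk had 7 distal regions, and 2 were common, both intronic. The one at chr19:40963041-40963240, 31.4 kb inside, had 1.61, 1.59 and 2.18, and the one at chr19:40977021-40977347, 17.4 kb inside, had 1.10, 1.19 and 0.806. A region 5.20 kb upstream of Blnk, at chr19:40999601-40999860, had 1.24 in replicate 2, 1.02 in replicate 3 and 0.907 in the longer list of replicate 1. Blnk thus had listed distal peaks in every replicate while its promoter reached no shorter list.

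Cd79a had 5 common regions, and each was nearer to another gene's start. The strongest, at chr7:24852981-24853420, had 2.80, 4.46 and 2.50 and lay 9.01 kb from the start of the gene model Gm9844. The one closest to Cd79a, at chr7:24890501-24890760, lay 1.89 kb from a start of Rps19, a ribosomal protein gene whose own promoter had 9.01, 15.3 and 9.13, and had 1.92, 3.21 and 1.84. Over all 8 genes, 5 of the 10 common regions had the member as the nearest protein-coding gene, and 5 had another.

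Cd79b, Rag1, Vpreb1 and Igll1 had 0 common distal regions. Cd79b had 2 regions in replicates 2 and 3, at 0.527 to 0.904. Rag1 had 2 in the same replicates, at -3.53 and -16.0 kb from its start (negative is upstream), with 0.920 and 0.987 in replicate 2 and 0.995 and 0.927 in replicate 3. Both were in the longer list of replicate 1, at 0.731 and 0.718. The first lay about as far from a start of B230118H07Rik, 3.50 kb, as from that of Rag1. The second lay nearer to a start of Traf6, at 13.0 kb, than to that of Rag1. Vpreb1 and Igll1 shared a single region 8.94 kb downstream of the Igll1 start, at chr16:16854961-16855138, in the shorter list of replicate 3 alone with 1.12 and in the longer lists of the others with 0.655 and 0.494.

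**Figure D3:**
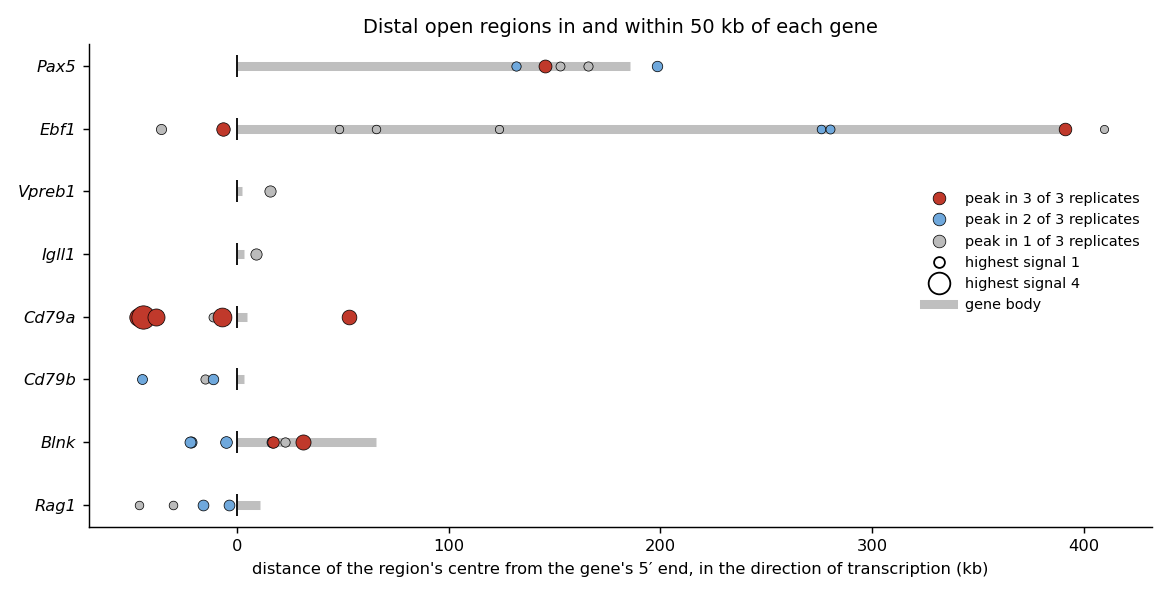
Distal regions of the 8 genes, placed by the distance of their centre from the gene's 5′ end in kb (horizontal axis, in the direction of transcription), with the gene body as a grey bar. Colour gives the number of replicates with a peak and size the highest signal. The 10 regions found in all 3 replicates lie at Pax5, Ebf1, Cd79a and Blnk, and the strongest, 4.46 in replicate 2, is upstream of Cd79a.

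Among the common distal regions, 3 that lie in or beside member genes shared a feature in sequence, a wide footprint over the core of the CTCF motif. CTCF is a factor that many cell types use to anchor chromatin loops and boundaries, and its sites are not particular to B cells. The regions are printed from GRCm38.p6 (mm10) on the strand of their gene, with bases common to the footprints of all 3 replicates in capitals: chr4:44564661-44564860 (minus strand), chr11:45008201-45008420 (plus strand) and chr19:40963041-40963240 (minus strand).
Pax5 intron: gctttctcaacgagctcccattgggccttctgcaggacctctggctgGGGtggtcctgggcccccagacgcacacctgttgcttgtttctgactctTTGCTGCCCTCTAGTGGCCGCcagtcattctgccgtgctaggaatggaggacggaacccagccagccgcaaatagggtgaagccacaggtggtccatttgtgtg
Ebf1 downstream: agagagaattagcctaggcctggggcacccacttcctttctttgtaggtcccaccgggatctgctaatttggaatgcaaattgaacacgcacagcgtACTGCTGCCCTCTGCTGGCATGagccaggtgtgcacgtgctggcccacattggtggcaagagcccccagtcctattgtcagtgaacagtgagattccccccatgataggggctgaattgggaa
Blnk intron: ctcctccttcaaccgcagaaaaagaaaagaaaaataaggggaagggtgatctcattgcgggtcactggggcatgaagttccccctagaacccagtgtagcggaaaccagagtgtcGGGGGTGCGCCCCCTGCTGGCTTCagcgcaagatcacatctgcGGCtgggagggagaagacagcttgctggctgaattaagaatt
The shared footprint bases TTGCTGCCCTCTAGTGGCCGC in Pax5, ACTGCTGCCCTCTGCTGGCATG at Ebf1 and GGGGGTGCGCCCCCTGCTGGCTTC in Blnk each contain that core, whose match lay wholly in a footprint in all 3 replicates. The region near Rps19 upstream of Cd79a was the fourth. The search for the core was added after the footprints had been seen and used a fixed pattern, so other forms of the motif were not counted. It found the core in 4 of the 10 common regions, or 40%, in 9.68% of the 31 regions of 1 or 2 replicates, and in 20.7% of the 8810 common distal regions of the genome, each in 200 bp. Promoter regions common to all 3 replicates held it in 1.94%. With 10 regions these shares are a description only. The common region upstream of Ebf1 had a shared footprint of 33 bp and no match to the pattern. In the Ebf1 downstream region the octamer ATGCAAAT, a motif of the Oct factors of B cells and other cells, was touched by a footprint in 0 replicates and occurs in 0.795% of common distal regions.

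A list of 30 further genes of B lineage development, drawn from textbook knowledge, gave the surroundings of the 8. In replicates 1, 2 and 3, 10, 14 and 16 of them were open, against 51.5%, 57.5% and 55.5% of all protein-coding genes. With the longer list 15 of the 30 were open in all 3 replicates, against 55.7% of all genes. In the shorter lists 10 were open in all 3, or 33.3%, against 50.9%. The regulators Tcf3, Ets1, Foxo1, Ikzf1, Bach2 and Irf8, the signalling genes Pik3cd, Lyn and Syk and the complement receptor gene Cr2 made up these 10. Several of them are used widely in blood cells, among them the E2A gene Tcf3, which had the highest signal of the list at 8.05, 11.2 and 7.91. Ets1 followed with 6.33, 8.22 and 7.12 and Foxo1 with 3.01, 2.91 and 4.43. Tcf3 was above Ets1 in each replicate although their ranges overlapped, and Foxo1 lay below both.

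Rag2, the partner of Rag1 with its start 24.8 kb away, Il7r, the receptor for the cytokine that early B cells need, and the surrogate light chain relatives Vpreb2 and Vpreb3 had 0 in both lists of every replicate. Spi1, the gene of PU.1, was open in replicate 3 alone, with 1.29, and in the longer lists of replicates 1 and 2 with 1.01 and 0.778. Of the 30 genes 14 had no shorter-list peak in any replicate.

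**Figure D4:**
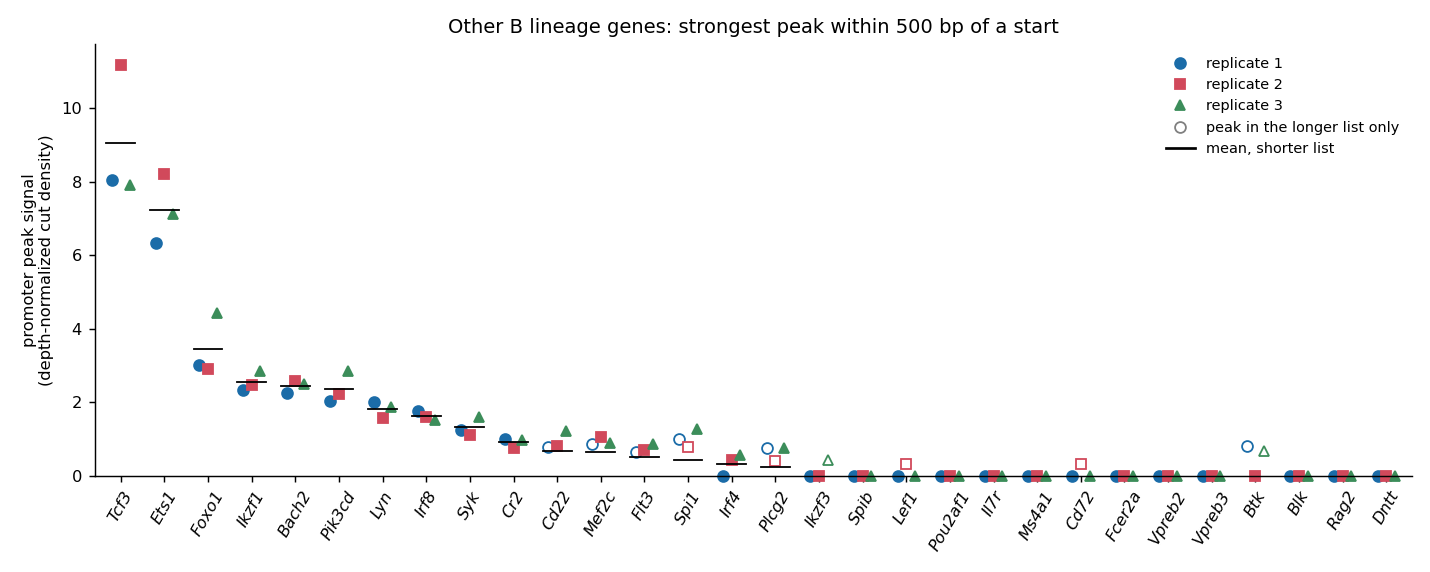
Promoter peak signal (vertical axis, depth-normalized cut density, no unit) of 30 other B lineage genes, ordered by their mean over the shorter lists (bars). Symbols are replicates, and hollow ones are peaks in the longer list only. The 10 genes open in all 3 replicates run from Tcf3, at 7.91 to 11.2, to Cr2, at 0.770 to 1.01.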

How the data were processed

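Peak lists, footprints and FDR files of 3 DNase-seq libraries were used as the authors deposited them, made per sample from filtered mm10 alignments, per the notes beside the files. Aligner and callers: not given in the sources used here. Each deposited peak signal is the highest depth-normalized cut density of a peak. The deposited FDR values were used as listed, below 0.05. The authors' footprints all carry the threshold 0.01, so the footprints were not ranked. No read totals were used, so no counting interval is given. Signal steps were whole within 0.02 for 100% of low values.

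Gene starts of every transcript came from GENCODE M21. A promoter was open where a shorter-list peak reached within 500 bp of a start. Distal peaks had no base within 1 kb of any start and lay in the gene or within 50 kb. Peaks and footprints of different replicates were joined where they shared at least 1 bp. The members, lists and motifs were chosen with earlier results of these data known. Named were all members, genes sharing a member's peak, of the 30 other genes the 3 strongest, those open in all 3 replicates and Rag2, Il7r, Spi1, Vpreb2 and Vpreb3. Genes near distal regions were named for position, and Lck, Alb, Afp and Ms4a1 as markers. From the lists, 2 genes were left out and are not reported here. Genes named under other observations were chosen after their values were seen. With 1 group there is no contrast, so nothing was tested. Python 3.11.15 and samtools 1.23.1 were used, and the calling step was checked on simulated peaks. Promoter sequences are from RefSeq on GRCm38.p6, which held 7 of the 8 genes. Alternatives were the longer list, other windows and distances, single starts, stronger peaks, unshared peaks and leaving out each replicate. Coding and RefSeq starts were added after seeing the data.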

Additional observations from a re-analysis of the deposited data

How the results depend on the processing

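Of 47 recomputed counts and shares, 39 stayed within 1.5 times the reported value and 8 did not. The number of members open in all 3 replicates was 1, Pax5, when peaks near another gene's start were left out, and 0 with RefSeq starts, against 3. The share of all protein-coding genes was 36.3% and 51.9% under these settings, against 50.9%. It was 2 with a 250 bp window or 1 start per gene (Ebf1 and Vpreb1), with only the upper 50% of peaks (Pax5 and Vpreb1) and with coding starts only (Pax5 and Ebf1). The shares of all genes were 49.8%, 46.0%, 41.9% and 49.7% in that order. The count of other B lineage genes open in all 3 was 5 with the upper 50% of peaks, against 10. It was 15 with the longer list, where 55.7% of all protein-coding genes were open. Without replicate 1 it was 14, against 54.3% of all genes. Common distal regions numbered 25 with the longer list, 6 within 25 kb and 1 with the upper 50% of peaks, against 10, and 10 to 22 when 1 replicate was left out. Shared promoter footprints numbered 6 to 11 when 1 replicate was left out, against 5. Of 80 recomputed promoter signals of single members 71 moved by no more than 1 SD and 9 moved further. In 8 of the 9 the peak fell outside the changed criterion and the signal became 0, and in the other the longer list gave Blnk a signal. The 71 are no measure of stability. Leaving out 1 of 3 replicates cannot move a mean by more than 1 SD, and the signals of closed genes mostly stayed at 0. Replicate 1, which has the fewest peaks, set the counts of common regions and footprints. No paired analysis was possible because there is 1 group.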

Other observations

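Some B lineage genes without a promoter open in all 3 replicates had several distal regions common to all 3 in the gene or within 50 kb. These genes were picked after their values were seen. Ikzf3, which encodes the Ikaros relative Aiolos, had a promoter signal of 0 in every shorter list and 4 common distal regions. Flt3, the gene of a receptor of early progenitors, had promoter signals of 0, 0.694 and 0.882 in replicates 1, 2 and 3 and 4 common distal regions. Spib, which encodes an ETS factor related to PU.1, had a promoter signal of 0 in each replicate and 3 common distal regions. Btk and Plcg2, also without a promoter open in all 3 replicates, had 3 common distal regions each. Irf4, Pou2af1, Ms4a1, Vpreb3 and Rag2, likewise not open in all 3, had 0. Ikzf1, whose promoter was open in each replicate, had 7. The distal counts depend on gene length and on neighbouring genes, and their part was not tested. Of all protein-coding genes 49% had at least 1 common distal region, and the share with several was not computed. Whether these counts are unusual cannot be told from them.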
